A study of Mus musculus with 62 samples.

Results

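Lipid droplet coat and droplet growth genes were followed across the fat and liver of Fam13a knockout and wild-type mice. The set held 10 of the 48795 genes in the count table, taken by gene symbol: the perilipins Plin1, Plin2, Plin3, Plin4 and Plin5, the CIDE genes Cidea, Cideb and Cidec, Clstn3, and Fitm2. The rule sets no threshold on any value, but the list was selected on gene names at a time when the levels and log2 differences of these libraries between tissues, diets and genotypes were already known, so how many of its genes differed is no independent evidence about droplet genes as a class. Bulk RNA-seq was made from visceral fat (VAT, the gonadal depot), subcutaneous fat (SAT, the inguinal depot) and liver, giving 62 libraries in 16 groups. All mice were on a C57BL6 background. The knockouts (KO) came from a KOMP allele in which exon 5 of Fam13a is flanked by LoxP sites, recombined in the whole body, and the controls were wild type (WT). Males were sampled on chow and on high-fat diet (HFD) in all 3 tissues, and females on HFD in both fat depots. HFD mice ate the diet for 14 weeks and were 22 weeks old at killing. The age of the chow mice was not given in the sources used here, so diet and age cannot be told apart. Each group had 4 libraries, except the female WT groups, which had 3 in each depot. Nothing in the labels links the tissues of 1 mouse or names litters, so p-values measure the spread between libraries.

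Lipid droplets store triglyceride under a phospholipid monolayer that carries proteins controlling access of lipases. Perilipin 1 is the main gatekeeper of the fat cell droplet: it holds the lipase coactivator Abhd5 until protein kinase A phosphorylates it. Plin2 and Plin3 coat droplets in most cell types, Plin4 is abundant in white fat and muscle, and Plin5 brings droplets to mitochondria in tissues that burn fat. The CIDE proteins sit where droplets touch and move lipid from the smaller into the larger one; Cidec serves the single large droplet of white fat, Cidea the droplets of brown fat, and Cideb the droplets and lipoproteins of hepatocytes. Fitm2 is an endoplasmic reticulum protein that helps droplets bud. The Clstn3 locus encodes the neuronal adhesion protein calsyntenin 3 and also Clstn3b, a fat cell transcript from the distal part of the locus whose product sits between endoplasmic reticulum and droplet and limits droplet fusion.

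The genes lie on 7 chromosomes of mm10 (GRCm38), and Plin4 and Plin5 are neighbours (chr17:56100591-56109803 and chr17:56111601-56117596). Plin1 spans chr7:79720218-79732903, Plin2 chr4:86648386-86670060, Cidec chr6:113424634-113435760 and Clstn3 chr6:124430759-124464794, all on the minus strand. The annotation gives Clstn3 7 transcripts, among them a processed transcript that lies wholly inside the gene (chr6:124431304-124433503), and the count table has 1 row for the locus, so the 2 products cannot be told apart. Cideb shared 76.3% of its exon bases with Nop9 on the opposite strand, and since the strand setting of the counting was not given, Cideb values are uncertain. Promoters are shown for the fat cell genes Plin1 and Cidec and, for contrast, the widely used Plin2, because Plin1 and Cidec were abundant in fat and all but absent or low in liver, and Plin2 was abundant in both. They are the RefSeq sequence of GRCm38.p6, minus strand, 5′ to 3′, ending at the annotated start; capitals mark TTGCNNAA, a C/EBP-type motif searched on both strands.
Plin1 (chr7:79732904-79733026): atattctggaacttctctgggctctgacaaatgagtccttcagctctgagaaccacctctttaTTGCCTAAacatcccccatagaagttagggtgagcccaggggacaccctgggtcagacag
Cidec first start (chr6:113435761-113436010): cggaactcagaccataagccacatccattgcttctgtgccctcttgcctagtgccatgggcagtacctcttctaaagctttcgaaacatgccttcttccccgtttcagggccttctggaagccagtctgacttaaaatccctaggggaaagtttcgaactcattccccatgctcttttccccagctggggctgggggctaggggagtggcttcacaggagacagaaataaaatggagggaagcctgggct
Cidec second start (chr6:113434765-113435014): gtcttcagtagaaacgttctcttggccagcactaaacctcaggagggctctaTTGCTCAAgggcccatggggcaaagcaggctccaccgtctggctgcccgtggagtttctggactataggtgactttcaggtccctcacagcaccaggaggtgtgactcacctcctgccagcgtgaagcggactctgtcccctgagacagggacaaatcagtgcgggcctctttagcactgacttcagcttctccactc
Plin2 (chr4:86670061-86670309): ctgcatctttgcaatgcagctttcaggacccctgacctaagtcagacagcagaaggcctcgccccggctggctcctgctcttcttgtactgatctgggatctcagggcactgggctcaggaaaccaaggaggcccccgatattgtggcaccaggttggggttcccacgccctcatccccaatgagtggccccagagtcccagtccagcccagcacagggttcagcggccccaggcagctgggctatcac
Windows of 250 bases before to 50 after a start were available for 9 of the 10 genes. TTGCNNAA occurred in the window of Plin1 (2 matches, 1 of them in an annotated exon and not shown) and in that of the second Cidec start, and in none of the others. It occurred in 10.8% of 32851 promoters. A direct repeat of AGGNCA with 1 base between, the PPAR-RXR type element, was found in none of the member windows and in 0.381% of all promoters, and no match says only that these letters are not in the window.

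Total counts per library ran from 4959783 to 28723319 with a median of 21694089, and 1 ribosomal RNA gene took up to 75.4% of a library (HFD liver KO replicate 3). The mean of Fam13a was lower in KO than in WT in all 8 combinations of tissue, sex and diet, with ranges apart in 3, and it was counted in every KO library; its log2 difference passed the test described below in SAT (−0.74, adjusted p = 0.0323) and not in VAT (−1.01, 0.474) or liver (−0.68, 0.235). Mean scores of defining markers fitted the labelled tissues. The mean log2 CPM of 6 hepatocyte markers was 12.2 to 13.2 in liver and at most 4.83 in fat. That of 8 adipocyte markers was 7.61 to 10.4 in fat and at most 3.42 in liver. By the test described below, 7 of the 8 adipocyte markers were higher and 1 was lower in fat than in liver on both diets. The summed CPM of the 8 was 3385 to 6843 in liver and 4022 to 8649 in male HFD VAT WT. Epididymis markers stood high in chow VAT WT replicate 2 and chow VAT KO replicate 1 (scores of 7.13 and 7.08). Chow libraries were run on lanes 1 to 3 and HFD libraries on lanes 4 to 8, apart from 2 on another flow cell, so diet and lane cannot be told apart. On chow VAT, SAT and liver each had a lane of their own, on HFD male VAT was on lane 4, male SAT on lanes 4 and 5 and male liver on lanes 6 and 8, and female fat was on lanes 6 to 8, so lane cannot be told apart from depot on chow, from fat against liver, or from sex either. Genotype was partly tied to lane: the female HFD SAT KO libraries were on lane 8, WT replicates 1 and 2 on lane 7. In HFD liver, WT replicate 1 alone was on lane 8. Replicate numbers were given in accession order and only name a library.

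Plin1, Plin4 and Cidec were far more abundant in fat than in liver, and Cideb was counted almost wholly in liver. On the TPM scale (transcript share of a library, scaled for gene length), Plin1 averaged 441 ± 209 (SD, n = 16) in male chow fat and 0.0418 ± 0.11 (n = 8) in chow liver, where 6 of 8 libraries had no read. On HFD it averaged 428 ± 123 in fat (n = 16) and 0.126 ± 0.26 in liver (n = 8), with 0 to 5 reads per liver library. So few reads give no usable fold for Plin1.

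Cideb went the other way, with 120 ± 12.7 TPM in chow liver and 0.51 ± 1.59 in chow fat. Fat libraries held 0 to 78 reads of it; the 78 reads were in chow VAT WT replicate 2, 1 of the 2 libraries with high epididymis markers, and no other chow fat library had more than 3. Plin4 averaged 1679 ± 762 TPM in chow fat and 7.11 ± 2.86 in chow liver, and Cidec 2996 ± 1358 and 36.8 ± 20.3.

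By edgeR's quasi-likelihood test on TMM-scaled counts, with Benjamini-Hochberg adjustment over all genes tested and a false discovery rate (FDR) of 10%, all 10 genes differed between fat and liver on chow, where 81.2% of all genes did, and 8 of 10 on HFD against 83.8% of all genes. Plin4 was higher in fat by 6.47 ± 0.36 (log2 difference ± SE, adjusted p = 3.56e-13) on chow and by 4.63 ± 0.18 (7.94e-17) on HFD. Cidec was higher by 4.99 ± 0.36 (3.68e-11) and 5.86 ± 0.24 (2.26e-16). Plin5 was lower in fat by −2.25 ± 0.25 (4.78e-08) and −2.55 ± 0.14 (5.86e-14). Plin3 and Cidea did not pass on HFD; Cidea passed without HFD VAT KO replicate 1 (−0.99) or HFD liver KO replicate 4 (−0.94). The median log2 difference of the set was −0.01 on chow and −0.42 on HFD.

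Small tissue differences depended on the scaling. Plin3 on chow had a log2 difference of −0.55, yet its TPM was 22.98 in fat and 13.3 in liver. Clstn3 on chow (−0.94, adjusted p = 0.0399, and −0.75 and not passing without chow liver KO replicate 2) had 9.05 and 6.08 TPM, Plin2 on HFD (−0.58) 626 and 339 TPM, and Fitm2 on HFD (−0.26) 106 and 49.3 TPM. With at least 10 counts in every library, Plin3 and Fitm2 on HFD turned sign. Cidea on HFD had a log2 difference of −0.76. Its TPM was 9.15 ± 6.47 (SD, n = 16) in fat and 8.22 ± 13.6 (n = 8) in liver. In HFD liver KO replicate 2 alone held 41.1 TPM, and the other libraries at most 9.12. For these genes in these settings no direction between fat and liver is read, since the log2 difference and TPM gave opposite ones. The size of larger differences depends on the scale too. Plin5 was lower in fat on both scales, with 41.0 TPM in fat and 66.9 in liver on chow and 14.4 and 32.9 on HFD. The median over all genes tested was 0.24 on chow and 0.13 on HFD. Plin2 on chow was lower in fat on both scales (−1.87 ± 0.21, adjusted p = 5.6e-08; 311 and 442 TPM).

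**Figure D1:**
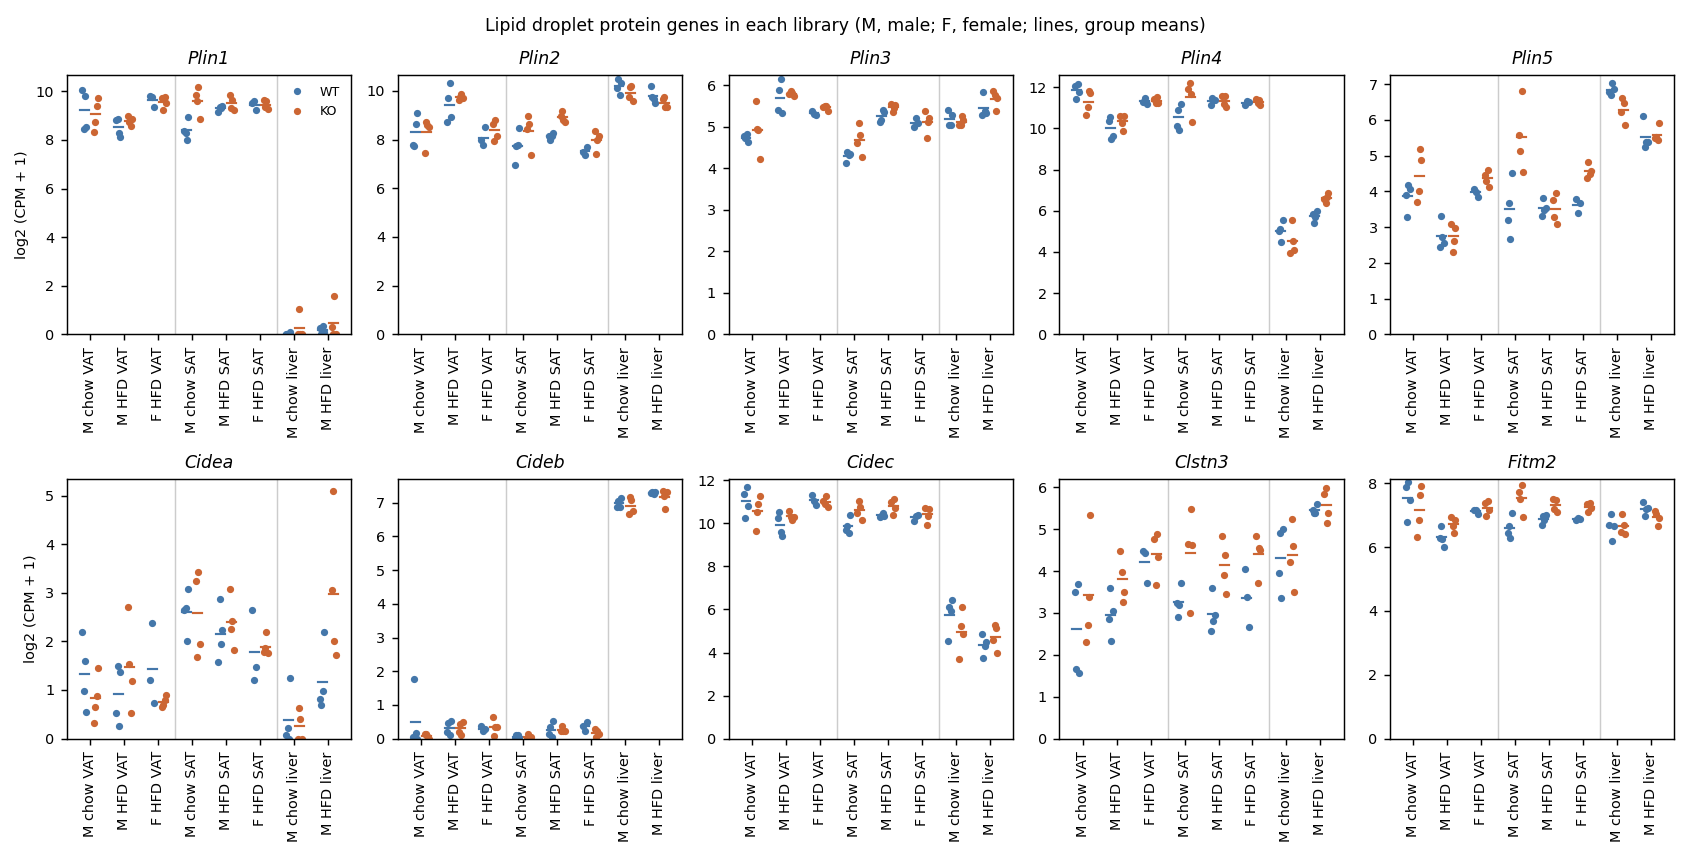
Levels of the 10 droplet genes in every library, 1 panel a gene, as log2(CPM + 1) on the y axis against the 16 groups on the x axis; blue points are WT, orange points KO, and lines are group means of the plotted values. Plin1 lies near 0 in all liver groups and Cideb near 0 in all fat groups, and male HFD VAT has the lowest Plin4 of the fat groups.

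The transcript shares within the perilipin and CIDE families differed between tissues more than among fat groups, with 1 exception. These are shares of RNA in bulk tissue, and the protein on droplets was not measured. Of the summed perilipin TPM, Plin4 took 59.0% to 72.1% and Plin1 15.2% to 24.3% in 8 of the 10 fat groups. In male HFD VAT, Plin4 took 38.1% in WT and 38.6% in KO, and Plin2 took 41.9% and 42.0%. In liver Plin2 took 79.6% to 85.4% and Plin5 7.40% to 13.8%. Of the summed CIDE TPM, Cidec took over 99% in every fat group, and in liver Cideb took 73.5% to 89.7%.

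Between the fat depots of chow males, 1 of the 9 genes tested differed, Cidea, against 32.1% of all genes; Cideb was too low in fat to be tested. Cidea in SAT was 5.28, 5.41, 3.05 and 7.48 CPM (counts scaled to library size, not to gene length) in WT and 8.52, 2.21, 9.77 and 2.87 in KO. In VAT it was 3.54, 0.960, 2.003 and 0.467 in WT and 0.246, 0.570, 0.844 and 1.75 in KO. Of the 8 SAT libraries 5 were above all VAT libraries and 3 lay within the VAT range (log2 VAT over SAT −2.22 ± 0.50, adjusted p = 0.00651). Without chow SAT KO replicate 2, Plin3 (0.45) and Cidec (0.74) also passed; without chow VAT KO replicate 1 Cidec did (0.78), and without chow VAT KO replicate 4 Plin3 did (0.47). The set's median was 0.26 beside 0.04 over all genes tested. In the same contrast 7 of 7 lymph node, 3 of 5 brown or beige adipocyte, 4 of 5 skeletal muscle and 2 of 5 stromal cell markers were lower in VAT. Of the epididymis markers 4 of 4 were higher, and of the mammary epithelium markers 3 of 3. The mammary list was highest in chow VAT KO replicate 1 and WT replicate 2 (summed CPM of 230 and 120), the 2 libraries of high epididymis markers. Its name does not mean that mammary tissue was present in these males. The part of all these markers in the Cidea difference was not tested. Without the 2 libraries of high epididymis markers, an alternative chosen after seeing the data, Cidec passed as well (0.85).

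On HFD 8 of 9 differed between the depots of males, against 44.6% of all genes, 2 higher and 6 lower in VAT. Plin2 was higher in VAT by 1.12 ± 0.19 (2.17-fold, adjusted p = 0.000264) and Plin3 by 0.42 ± 0.10 (0.00356). Plin1 was lower in VAT by −0.72 ± 0.12 (0.000241), Plin4 by −1.12 ± 0.17 (9.52e-05) and Cidec by −0.42 ± 0.15 (0.0407). Plin5, the perilipin of fat-burning tissues, was also lower in VAT (−0.84 ± 0.17, 0.0013). Fitm2 was lower as well (−0.57 ± 0.10, 0.000325), and so was Cidea (−1.40 ± 0.49, 0.0363), whose call was lost when the pair run on the other flow cell was left out (−1.15). Clstn3 had a difference of −0.19 (adjusted p = 0.604). The median of the set was −0.57 beside 0.05 over all genes. All 8 adipocyte markers were lower and all 7 macrophage markers higher in VAT in the same contrast. Of 6 brown or beige adipocyte markers 3 were lower and 0 higher. What part these markers had was not tested. Of the pathway lists on chow, against 32.1% of all genes, 2 lipolysis genes were higher and 1 lower in VAT of 17. Of 17 triglyceride and droplet formation genes 2 were higher and 0 lower. Of 14 other droplet surface genes 7 were higher and 1 lower, and of 10 regulators none passed. On HFD lipolysis genes had 1 higher and 12 lower of 17, and formation genes 3 and 4 of 17. Other surface genes had 4 and 2 of 15 and regulators 0 and 4 of 10, against 44.6% of all genes. On chow the lipolysis, formation and regulator shares were below the background, and on HFD only the lipolysis share was above it.

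The perilipins of male VAT differed between HFD and chow in opposite directions. Plin2 and Plin3 rose and Plin1, Plin4, Plin5, Cidec and Fitm2 fell, 7 of 9 tested against 44.2% of all genes. Plin2 in chow VAT was 219, 211, 403 and 550.5 CPM in WT and 174, 416, 392 and 363 in KO. HFD libraries held 416, 840.5, 1267 and 485 in WT and 791, 862, 935 and 827 in KO. All 4 HFD KO libraries were above all chow libraries, whereas 2 HFD WT libraries lay within the chow range (log2 HFD over chow 1.196 ± 0.26, 2.29-fold, adjusted p = 0.00252; 1.08 and not passing in WT alone).

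Plin4 in chow VAT was 4261, 2704, 4475 and 3522 CPM in WT and 1626, 2094, 3550.1 and 3322 in KO. HFD libraries held 1330.3, 1488, 709 and 779.7 in WT and 1543, 1209, 946 and 1563 in KO. No HFD library reached the lowest chow library (−1.44 ± 0.25, adjusted p = 0.000372). Plin3 rose by 0.88 ± 0.17 (0.000967), from 17.6 to 48.5 CPM on chow to 39.1 to 70.4 on HFD. Plin5 fell by −1.62 ± 0.26 (0.000226), from 8.80 to 35.3 CPM to 3.94 to 8.98. Plin5 overlapped between diets by 1 library of each.

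Cidec fell by −0.77 ± 0.27 (adjusted p = 0.0359) and Fitm2 by −0.97 ± 0.24 (0.0052). In KO alone neither passed (Cidec −0.43, Fitm2 −0.62), and Cidec did not pass with no low-count filter (−0.69). Plin1 fell by −0.62 ± 0.26 (0.0765), a weak call that was lost when any 1 of 9 of the 16 libraries was left out (chow WT replicates 1 and 3, chow KO replicates 3 and 4, HFD WT replicates 2, 3 and 4, HFD KO replicates 2 and 3), with the difference never outside −0.85 to −0.39 in those fits or in either genotype alone. Cidea had 0.29 ± 0.68 (0.78) and Clstn3 −0.01 ± 0.49 (0.989). The median of the set was −0.62 beside −0.04 over all genes.

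Markers of other cell types moved with diet in VAT. In WT the median score of 8 adipocyte markers was 9.68 on chow and 8.40 on HFD, and in KO 9.59 and 8.66; 6 of 8 passed as lower and 1 as higher. The score of 7 macrophage markers was 5.02 and 8.21 in WT and 4.94 and 8.45 in KO, and 7 of 7 passed as higher. Of 6 hepatocyte markers 5 were higher on HFD and 1 lower, and 4 of 4 epididymis markers were lower. Of 5 brown or beige adipocyte markers 4 were higher and 1 lower, and 3 of 3 mammary epithelium markers were lower. In bulk tissue, fewer cells of a type and less RNA per cell cannot be told apart. With the adipocyte score as a covariate, Plin2 (1.11), Plin3 (0.59), Plin4 (−0.58) and Plin5 (−1.19) kept their direction and call, Fitm2 had −0.17 and did not pass, Plin1 and Cidec turned to 0.31 and 0.23 without passing, and Cidea passed at 2.46. The part of the macrophage and other markers in these values was not tested. Without the 2 libraries of high epididymis markers the 7 genes kept direction and call.

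In male SAT 2 of 9 passed against 58% of all genes. Plin3 was 16.6, 20.1, 18.9 and 19.2 CPM in chow WT and 23.2, 32.9, 26.7 and 18.2 in chow KO. HFD samples had 33.8, 35.0, 41.1 and 39.6 in WT and 45.6, 39.8, 42.7 and 44.9 in KO. Every HFD library was above every chow library (0.90 ± 0.11, 1.87-fold, adjusted p = 3.48e-05).

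Plin5 fell by −1.23 ± 0.45 (0.0326), but within WT alone the difference was −0.12 and did not pass; the 4 chow KO libraries, at 46.5, 34.0, 110.1 and 22.1 CPM, were above all 4 chow WT libraries (5.40 to 21.7), and the 8 HFD libraries held 7.46 to 14.4. The other 7 genes did not pass, among them Plin2 (0.40, adjusted p = 0.125), Cidec (0.34, 0.103) and Plin4 (0.21, 0.542). Without chow SAT WT replicate 4, Plin2 (0.56) and Cidec (0.43) passed. Without chow SAT KO replicate 2, Plin2 (0.49), Cidec (0.41) and Clstn3 (−0.51) did. Plin1 passed without chow SAT KO replicate 3 (0.48) and Cidec without HFD SAT KO replicate 2 (0.40). In WT alone Plin1 (0.87), Plin4 (0.71) and Cidec (0.45) passed. The set's median was 0.21 beside −0.02 over all genes. Lymph node markers moved with diet in this depot, 7 of 7 lower on HFD, 5 of 7 macrophage markers were higher, and skeletal muscle markers ranged in score from −0.83 to 10.9 among the male SAT libraries; with the lymph node score as a covariate Plin3 and Plin5 still passed.

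**Figure D2:**
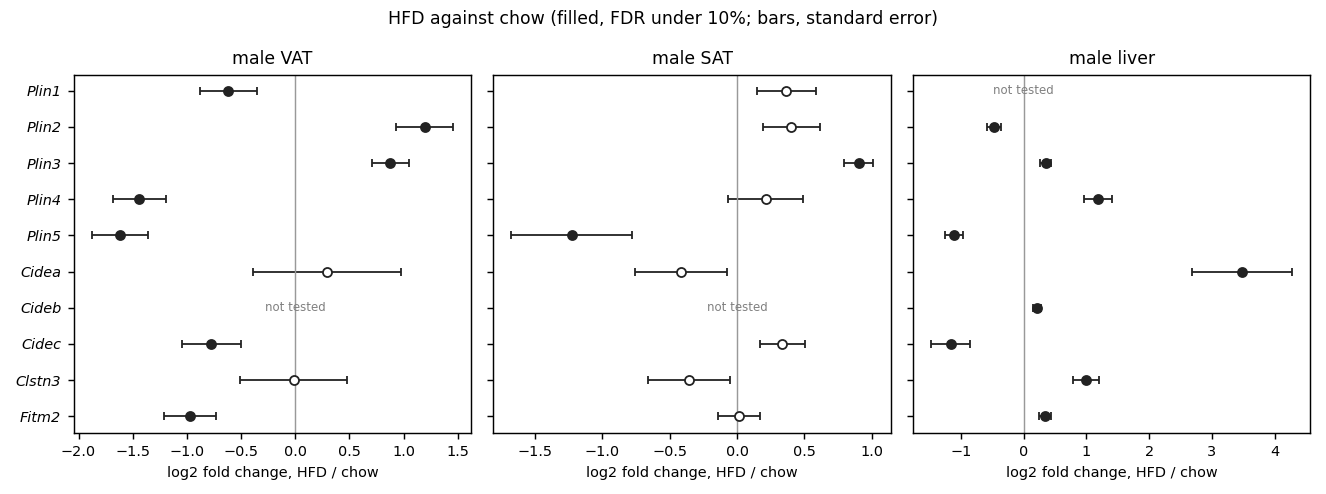
Log2 difference between HFD and chow (x axis, error bars 1 SE) for each droplet gene (y axis) in male VAT, SAT and liver; filled points passed the FDR of 10%, and the x axes differ between panels. Plin4 is at −1.44 in VAT, 0.21 in SAT and 1.19 in liver.

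The diet difference itself differed between the depots for 5 of 10 genes, against 37.3% of all genes. The log2 difference of differences (VAT minus SAT) was −0.97 ± 0.32 for Plin1 (adjusted p = 0.0254), −1.63 ± 0.34 for Plin4 (0.000867), −1.09 ± 0.31 for Cidec (0.00964) and −0.97 ± 0.28 for Fitm2 (0.00944). Plin2 had 0.81 ± 0.36 (0.0862), which no longer passed when any 1 of 17 of the 32 libraries was left out (chow VAT WT replicates 1 and 2 and KO replicate 1, chow SAT WT replicate 4 and KO replicates 2 and 3, HFD VAT WT replicates 2 and 3 and KO replicates 2 and 3, HFD SAT WT replicates 1 to 4 and KO replicates 1, 3 and 4), nor without the 2 libraries of high epididymis markers (0.63). Plin3, at −0.01 ± 0.20 (0.994), had nearly the same difference in both depots. Beside these, 6 of 8 adipocyte markers passed as lower and 7 of 7 macrophage and 7 of 7 lymph node markers as higher in the same contrast, and what part they had in the droplet genes was not tested there. The set's median was −0.67 beside −0.03 over all genes.

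Liver on HFD differed from chow in all 9 genes tested, 6 higher and 3 lower, against 40.8% of all genes; Plin1 was too low to test. The main liver perilipin, Plin2, was 1104, 1443, 904 and 1281 CPM in chow WT and 865, 1147, 1191 and 761 in chow KO. HFD livers had 1186, 863, 806 and 729.9 in WT and 802, 857, 639 and 646 in KO. The groups overlapped (−0.48 ± 0.11, adjusted p = 0.00252). The median of the set was 0.34 beside 0.00 over all genes.

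Plin5 was 109.7, 103, 129.6 and 114 CPM in chow WT, 72.8, 96.2, 87.6 and 57.3 in chow KO, 68.2, 36.9, 40.6 and 40.2 in HFD WT and 44.3, 44.4, 42.4 and 58.7 in HFD KO. All but 2 HFD libraries were below every chow library (−1.10 ± 0.14, 1.08e-05). Plin4 was 31.5, 33.1, 21.1 and 46.5 CPM in chow WT and 14.6, 45.5, 22.4 and 15.98 in chow KO. On HFD it was 55.6, 41.6, 50.9 and 61.8 in WT and 94.4, 82.2, 99.0 and 114 in KO, so that 1 HFD library lay within the chow range (1.19 ± 0.23, 2.28-fold, 0.000507). Plin3 rose by 0.35 ± 0.09 (0.00352), a call lost within WT alone (0.23).

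Among the droplet fusion genes of liver, Cidea rose, Cidec fell and Cideb rose slightly. Cidea was 0.0571, 0.17, 0 and 1.37 CPM in chow WT and 0, 0.537, 0.329 and 0 in chow KO, in all at most 20 reads a library. On HFD it was 0.769, 0.609, 0.966 and 3.60 in WT and 7.32, 33.0, 3.03 and 2.31 in KO. Of the 8 HFD libraries 5 were above every chow library, with KO replicate 2 far above the rest (3.48 ± 0.80, adjusted p = 0.00222; 2.56 and still passing without that library; 1.73 and not passing in WT alone). Of the 5, KO replicate 3 rested on 3 reads and was the library of highest ribosomal RNA share. Because chow libraries were at or near 0, the fitted size depends on the prior count and is no bound. Cidec was 22.3, 69.2, 60.0 and 86.6 CPM in chow WT and 11.9, 36.0, 67.2 and 28.0 in chow KO. On HFD it was 28.1, 12.4, 18.5 and 21.2 in WT and 23.2, 37.6, 34.4 and 14.6 in KO, overlapping with chow (−1.16 ± 0.31, 0.00769; −0.63 and not passing in KO alone).

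Cideb changed by 0.21 ± 0.06 (adjusted p = 0.0113), from 101 to 142 CPM to 111 to 161; within KO alone it was 0.16 and did not pass, and the overlap with Nop9 applies. Fitm2 rose by 0.34 ± 0.10 (0.0128), not passing in KO alone (0.19). Clstn3 was 14.5, 29.2, 9.20 and 31.0 CPM in chow WT and 17.7, 36.7, 23.3 and 10.4 in chow KO. On HFD it was 42.9, 41.0, 41.0 and 47.2 in WT and 56.7, 62.2, 34.4 and 40.5 in KO, with 1 HFD library within the chow range (0.997 ± 0.20, 1.996-fold, 0.000887). The adipocyte marker score of liver was 0.80 to 3.16 on chow and 2.43 to 3.42 on HFD. Of 4 adipocyte markers tested in liver 3 were higher on HFD and 1 lower, and their part in the liver values was not tested.

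The other genes of the droplet pathway were counted over 4 lists, in VAT against 44.2% of all genes called. Among 17 lipolysis genes 3 rose and 8 fell; those of smallest p were Lipa, the lysosomal acid lipase (2.21), Adrb3, the fat cell beta-adrenergic receptor (−3.36), the carboxylesterase Ces1d (−2.07) and the phosphodiesterase Pde3b (−1.53). Of 17 triglyceride and droplet formation genes 5 rose and 5 fell, led by Pcyt1a (0.65), which makes phosphatidylcholine, and the acyltransferases Mogat1 (−1.97), Gpam (−1.06) and Dgat2 (1.26). Of 14 other droplet surface genes 6 rose and 1 fell, with Mettl7a1 (−1.22), Lss (1.08), Rab8a (0.47) and Nsdhl (1.22) in front. Of 10 regulators 1 rose and 4 fell: Creb3l3 (1.83), Ppargc1b (−1.09), Pparg (−0.78) and Ppargc1a (−0.91) had the smallest p. The shares of the last 2 lists, 7 of 14 and 5 of 10, were near that background. The list medians were −0.35, 0.07, 0.20 and −0.34, beside −0.04 over all genes tested.

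In SAT, where 58% of all genes were called (4921 higher and 5115 lower), 8 lipolysis genes rose and 6 fell of 17 (Pnpla3 2.19, the kinase subunit Prkaca 1.04, the monoglyceride lipase Mgll 1.44 and Adrb3 −2.20), and 9 formation genes rose and 4 fell of 17 (the lipoprotein lipase Lpl 1.09, Dgat2 1.73, seipin Bscl2 0.66 and Lpin3 0.92). Of 15 other surface genes 8 rose and none fell (the sterol enzymes Nsdhl 1.83, Lss 1.44 and Sqle 1.03, and the caveolin Cav1 1.93). Of 10 regulators 3 rose and 2 fell (Ppargc1b −1.27, Cebpb 0.90, Ppargc1a −0.85, Creb3l3 1.47). The shares of the last 2 lists, 8 of 15 and 5 of 10, were below the background. The medians were 0.31, 0.37, 0.17 and 0.11, beside −0.02 over all genes.

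In liver, against 40.8% of all genes, 3 lipolysis genes rose and 3 fell of 16 (Lipe 0.66, Prkaca 0.44, the lipase inhibitor Hilpda −1.14 and Lipa −0.41), and 7 formation genes rose and 3 fell of 17 (the fatty acid transporter Cd36 1.40, Dgat2 0.97, Fitm1 1.57, Mogat1 1.61). Of 15 other surface genes 2 rose and 2 fell (Mettl7a1 0.94, Hsd17b13 −0.41, Sqle −1.03, Cavin1 0.30), and of 10 regulators 7 rose and 1 fell (Srebf1, the lipogenic transcription factor, 2.42, Cebpa 0.52, Pparg 1.18, Ppara 0.41). The lipolysis and other surface shares, 6 of 16 and 4 of 15, were below the background. Medians were 0.01, 0.24, 0.07 and 0.37, with 0.00 over all genes. In the contrast of the diet difference between depots, against 37.3% of all genes, 1 lipolysis gene was higher and 11 lower in VAT (Mgll −1.46, Lipa 1.66, Ces1d −1.66, Lipe −1.11), 1 and 6 formation genes (Tmem159 −0.86, Mogat1 −1.47, Gpam −0.85, Lpin1 −0.75), 3 and 4 other surface genes (Rab8a 0.69, Mettl7a1 −1.13, Cav1 −1.42, Mettl7b −2.15) and 0 and 3 regulators (Pparg −0.83, Cebpa −0.70, Rxra −0.55).

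Loss of Fam13a went with a higher count of the Clstn3 locus in SAT. In chow SAT it was 8.44, 6.45, 8.12 and 12.1 CPM in WT and 24.04, 7.03, 43.8 and 23.5 in KO. In male HFD SAT it was 4.92, 11.2, 6.05 and 6.73 in WT and 27.5, 13.9, 19.9 and 9.89 in KO. In female HFD SAT it was 15.4, 9.49 and 5.33 in WT and 27.7, 12.03, 22.5 and 21.7 in KO. In each of these 3 settings all but 1 KO library lay above every WT library.

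In VAT the spread was wider. Chow VAT had 10.2, 2.17, 12.02 and 1.99 CPM in WT and 3.93, 5.54, 9.48 and 39.3 in KO. Male HFD VAT had 6.25, 11.1, 4.01 and 7.21 in WT and 21.2, 14.7, 8.55 and 10.4 in KO, and female HFD VAT 21.2, 20.6 and 12.04 in WT and 26.1, 11.8, 28.7 and 19.1 in KO. The groups overlapped in all 3 settings, and the KO mean was higher in all 6 fat settings.

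In male SAT and VAT together, Clstn3 was the 1 gene of 10 that passed, against 3.97% of all genes (KO over WT 1.22 ± 0.30, 2.32-fold, edgeR adjusted p = 0.0366). That fit took SAT and VAT libraries as independent, and where both came from 1 mouse its p may be too small. In SAT of both sexes Clstn3 was 1.27 ± 0.25 higher (2.41-fold, 0.0141). It passed in all 43 and 34 alternative fits of these 2 comparisons, at 1.03 to 1.30 and 1.12 to 1.41. Plin3 passed in male SAT and VAT only without chow VAT KO replicate 4 (0.29). In VAT of both sexes Clstn3 had 0.80 ± 0.37 and did not pass (adjusted p = 0.582), and in liver 0.22 ± 0.20 (0.751). Whether the KO difference differs between depots was not tested. Which of the 2 products of the locus was counted cannot be told from 1 row. Of the other markers, 3 of 6 of brown or beige adipocytes and 2 of 4 of epididymis were higher in KO in male SAT and VAT together, and 2 of 7 of brown or beige adipocytes in SAT; their part in Clstn3 was not tested.

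In SAT of both sexes 5 of 9 droplet genes were higher in KO and none lower, against 4.33% of all genes, and the median of the set was 0.50 beside −0.01 over all genes. Beside Clstn3, Fitm2 was higher by 0.59 ± 0.12 (1.501-fold, adjusted p = 0.0137) and passed in all 34 alternatives. In male HFD SAT it was 102, 125, 115 and 127 CPM in WT and 181, 145, 177 and 135 in KO, and in female HFD SAT 115, 119.8 and 115 in WT and 161, 137, 164 and 148 in KO; the groups did not overlap in either. In chow SAT, with 85.0, 99.96, 77.7 and 132 in WT and 209, 179, 246 and 122 in KO, 1 KO library fell below the highest WT library.

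Plin2 was higher in KO SAT by 0.64 ± 0.17 (1.55-fold, adjusted p = 0.0542). It was 125, 211, 217 and 351 CPM in chow WT, 341, 507, 399 and 166 in chow KO, 284, 252, 285 and 310.4 in male HFD WT, 497, 573, 442 and 424 in male HFD KO, 177, 166 and 206 in female HFD WT and 329, 169, 251 and 285 in female HFD KO. Only in male HFD SAT did the 2 genotypes not overlap. Plin5 (1.04 ± 0.32, 0.0889) and Cidec (0.46 ± 0.14, 0.0917) were near the threshold. Plin5 lost its call without any 1 of 17 of the 23 libraries, all but chow KO replicate 4, male HFD WT replicates 2 and 4, male HFD KO replicates 2 and 4 and female KO replicate 2; over 34 alternatives it lost the call in 21 and stayed between 0.79 and 1.17. Cidec lost its call without any 1 of 16 libraries, all but chow WT replicate 4, chow KO replicate 4, male HFD KO replicate 2, female WT replicates 2 and 3 and female KO replicates 2 and 3; it lost the call in 19 of 34 alternatives, between 0.31 and 0.58. Plin1 (0.50, 0.137), Plin3 (0.23, 0.198), Plin4 (0.37, 0.353) and Cidea (0.10, 0.877) did not pass. Plin1 passed without chow SAT KO replicate 4 (0.54), with DESeq2 and in males alone, Plin3 in males alone, and both without female HFD SAT KO replicate 2, the female SAT library of highest lymph node score (5.11).

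Lymph node markers moved with genotype in chow SAT: the score of 7 markers was 4.42 to 5.95 in WT and −0.71 to 5.44 in KO, with medians of 5.79 and 0.88, and the adipocyte score had medians of 8.99 and 9.998. None of the 7 and none of the 8 passed between genotypes over all SAT libraries. With the lymph node score as a covariate Clstn3 (1.24) and Fitm2 (0.50) still passed, and Plin2 (0.50), Plin5 (0.99) and Cidec (0.33) did not. With the adipocyte score as a covariate all 5 passed, Clstn3 at 1.16, and Plin1 passed too (0.31).

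**Figure D3:**
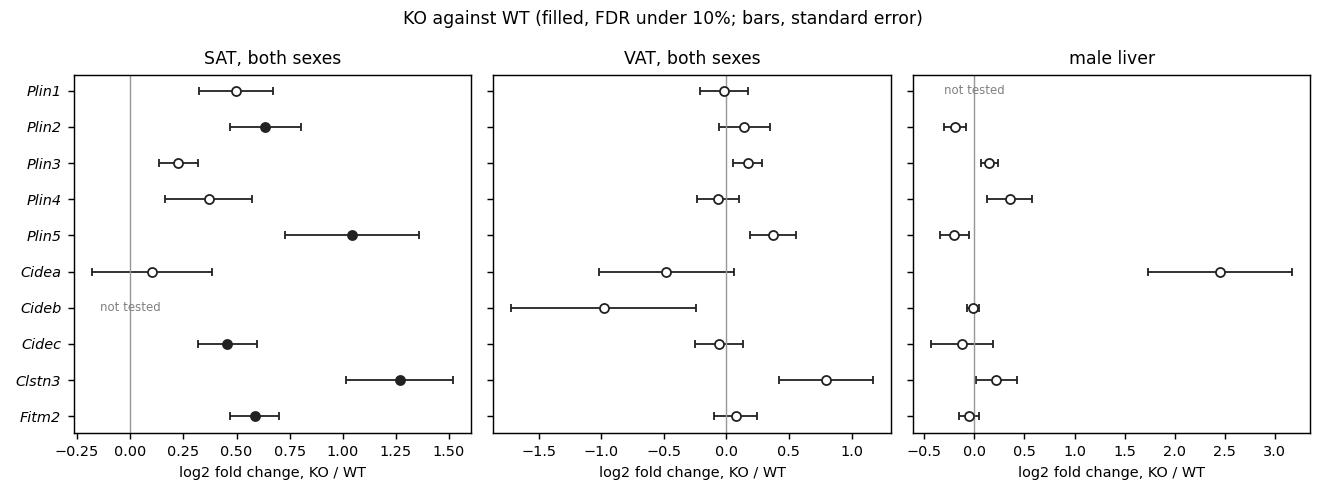
Log2 difference between KO and WT (x axis, error bars 1 SE) for each droplet gene (y axis) in VAT and SAT of both sexes and in male liver; filled points passed the FDR of 10%, and the x axes differ between panels. In SAT 5 genes are filled, with Clstn3 at 1.27, and none is filled in VAT or liver.

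In VAT of both sexes none of 10 droplet genes passed, where 1 of 18975 genes did (0.00527%) and 1598 had an unadjusted p under 0.05; DESeq2 and limma-voom also called none of the 10. In liver none of 9 passed, nor did any gene (0% of 14476, with 1416 at an unadjusted p under 0.05, 85 called by DESeq2 and 2 by limma-voom). Cidea in liver had 2.45 ± 0.72 (adjusted p = 0.324), 1.06 without HFD liver KO replicate 2, and passed only where no low-count filter was used (2.47). A p that misses the threshold does not show that the genotypes were alike.

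No droplet gene passed edgeR's test for a genotype difference that differed between diets. That held in VAT (0.00577% of all genes passed, 1587 at an unadjusted p under 0.05), SAT (0.0173%, 3010) and liver (0%, 928). Over all genes DESeq2 called 102, 843 and 22 and limma-voom 0, 1 and 0. Here too a missed threshold does not show that the differences were alike. Nearest in SAT was Plin5 (HFD minus chow −2.18 ± 0.66, adjusted p = 0.172), which together with Plin1, Plin4 and Fitm2 passed without chow SAT KO replicate 4 (Plin5 −2.47, Plin1 −1.25, Plin4 −1.31, Fitm2 −0.67), and together with Plin1 by DESeq2. Nearest in liver was Plin4 (1.23 ± 0.36, adjusted p = 0.552): the HFD KO libraries listed above were all above the HFD WT ones, while on chow the genotypes overlapped. It passed only without the low-count filter, and DESeq2 called no droplet gene there.

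Among the pathway lists in KO SAT, against 4.33% of all genes, 5 of 17 lipolysis genes were higher and none lower (Mgll 0.67, Prkaca 0.47, Pnpla3 0.71 and the lipase coactivator Abhd5 0.32 had the smallest p), as were 5 of 18 formation genes (the acyltransferase Agpat2 1.29, Bscl2 0.48, Lpin1 0.58, Dgat2 0.89), 3 of 15 other surface genes (Faf2 0.17, Lss 0.38, Sqle 0.43) and 2 of 10 regulators (Nr1h3 0.38, Rxra 0.42). The list medians were 0.36, 0.39, 0.20 and 0.37, beside −0.01 over all genes tested. In male SAT and VAT together 1 of 17 lipolysis genes was lower and none higher, 3 of 17 formation genes were higher (Agpat2 1.07, Dgat2 0.70, Mogat2 1.28), and no other surface gene or regulator passed, against 3.97% of all genes. None of the 4 lists had a gene passing in VAT or liver.

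Females and males on HFD differed most in VAT. There 8 of 10 droplet genes passed, 6 higher and 2 lower in females, against 39.5% of all genes. Plin5 was 15.9, 14.8 and 13.4 CPM in female WT and 20.9, 18.4, 23.2 and 16.5 in female KO, and 3.94 to 8.98 in the 8 male libraries. The sexes did not overlap (1.55 ± 0.16, 2.92-fold, adjusted p = 2.05e-05). Plin4 was 2519, 2881 and 2302 CPM in female WT and 2712, 2392, 2901 and 2409 in female KO, all above the male maximum of 1563 (1.13 ± 0.17, 0.000156). Plin2 was 249.99, 217 and 361 in female WT and 401, 244, 442 and 279 in female KO, against a male range of 416 to 1267, and only 1 female library reached the lowest male one (−1.36 ± 0.22, 0.000276).

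Plin1 (0.95 ± 0.14, adjusted p = 0.000108), Cidec (0.87 ± 0.17, 0.000997), Clstn3 (0.98 ± 0.26, 0.0102) and Fitm2 (0.67 ± 0.11, 0.000293) were also higher in female VAT, and Plin3 was lower (−0.36 ± 0.10, 0.0142). The median of the set was 0.77 beside −0.01 over all genes. Macrophage markers were lower in females in 7 of 7 and adipocyte markers higher in 7 of 8, and their part in these values was not tested. In SAT 3 of 9 passed against 26.6% of all genes: Plin2 (−0.78 ± 0.13, 0.000502) and Plin3 (−0.26 ± 0.09, 0.0485) were lower in females and Plin5 (0.64 ± 0.19, 0.0266) higher. There the median of the set was −0.08 beside 0.01, 6 of 7 macrophage markers were lower and 5 of 5 mammary epithelium markers higher in females. Cidea passed too without female HFD SAT WT replicate 1 (−0.91). Of the pathway lists in VAT, 14 of 17 lipolysis, 8 of 17 formation, 5 of 15 other surface and 7 of 10 regulator genes were higher in females. In the same order 2, 2, 3 and 0 were lower, against 39.5% of all genes called. In SAT 1, 4, 2 and 2 were higher and 4, 4, 4 and 1 lower, against 26.6%.

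Across the 46 fat libraries, with the mean of each group removed, Plin1 log2 CPM followed Lipe, the hormone-sensitive lipase and also 1 of the adipocyte markers (Pearson r = 0.962), Mtus1 (0.908) and Akt2 (0.901) most closely. Clstn3 followed the triglyceride acyltransferase Dgat1 (0.947), the acyl-CoA synthetase Acsl1 (0.924) and the acyltransferase Gpat3 (0.919). Plin4 followed Trarg1 (0.928), Phldb1 and Apol6, Cidec followed Sntb1 (0.905), Chp1 and Aifm2, Plin2 followed Pltp (0.876), Rhoc and Lmna, and Cidea followed Oplah (0.811), Ppara and Zbtb5. Among the droplet genes themselves, Plin1 had r = 0.902 with Fitm2, 0.805 with Cidec, 0.765 with Clstn3 and 0.24 with Plin2. These points share tissue make-up and library depth, and r describes them only.

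Over the 16 liver libraries, group means kept, Plin5 followed Smim13 (r = 0.952), Tmem82 and Tubb2a, Plin4 followed 9330121J05Rik (0.951), Sac3d1 and Gm10851, and Cideb followed Dhrs7b (0.958), Gle1 and Gm5617. Plin2 followed Hsd17b7 (0.917) and Armcx5, Cidea followed Gm10851 (0.929), Anxa2 and Parp3, and Cidec followed Apoa4 (0.89), Inca1 and Cgref1. Plin4 and Cidea had r = 0.874 with each other, and Cidea and Clstn3 0.869. Diet is part of these values.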

How the data were processed

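RNA from VAT, SAT and liver was sequenced from TruSeq Stranded libraries. The authors aligned reads with STAR (2.5.3a in the submitters' processing notes) to mm10 and deposited raw read counts per gene from STAR's count mode with GENCODE annotation; the strand column kept was not given in the sources used here. Counts of 48795 genes in 62 libraries were used as deposited, and symbols from GENCODE M21 were matched to 99.3% of gene IDs. The 10 genes and all lists were chosen with earlier results of these data known. Comparisons used edgeR 4.0.16 in R 4.3.3 (TMM, filterByExpr, legacy quasi-likelihood fit, Benjamini-Hochberg over all genes tested, FDR of 10%), with genotype, diet, sex or depot as covariates. CPM used TMM over all libraries and TPM the merged exon length, leaving out the ribosomal RNA gene; log2 CPM used a prior count of 2. Marker scores are mean log2 CPM. Of the 17 fits 5 were tested on simulated data, and all were repeated with DESeq2 1.42.0 and limma 3.58.1, other size factors, other filters, and fewer libraries. Named genes were the 10, up to 4 per pathway list of smallest p among those passing in each diet or genotype comparison, and the 3 genes of highest r; 2 results under this rule are not reported here. No 2 libraries were alike beyond r = 0.991. The precision is set by 3 or 4 libraries a group and, for Cidea, for Cideb in fat and for Plin1 in liver, by low counts.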

Additional observations from a re-analysis of the deposited data

Results flagged for a closer look

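Of 124 groups of 4 libraries tested over the droplet genes, 4 held a library far from the other 3, and chance alone gives about 1 in 20. Plin2 was 174 CPM in chow VAT KO replicate 1, beside 363 to 416 in the others; this library also had high epididymis markers. Plin3 was 40.9 CPM in female HFD VAT KO replicate 4, beside 43.8 to 44.2. Plin5 was 58.7 CPM in HFD liver KO replicate 4, beside 42.4 to 44.4, and 68.2 CPM in HFD liver WT replicate 1, beside 36.9 to 40.6.

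The difference between HFD and chow itself differed between VAT and SAT of males for 5 of 10 droplet genes, against 37.3% of all genes. The test was the interaction term of edgeR's quasi-likelihood test. The log2 difference of differences was −0.97 for Plin1, 0.81 for Plin2, −1.63 for Plin4, −1.09 for Cidec and −0.97 for Fitm2. Plin2 was a weak call by that test (adjusted p = 0.0862), lost in 20 of 41 alternative fits.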

How the results depend on the processing

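Of 67 calls of a droplet gene in 1 of 17 comparisons, 49 held their direction and call in every alternative fit that tested the gene. The counts of droplet genes passing changed as follows. Between depots on chow it was 1 and became 0 with at least 10 counts in every library (Cidea not tested), and 2 with DESeq2, limma-voom or without the 2 libraries of high epididymis markers, the last chosen after seeing the data. Between fat and liver on HFD 8 became 5 with at least 10 counts in every library, where Plin3 turned to 0.33 and Fitm2 to 0.091. For diet, 7 in VAT became 4 in KO alone, and with the adipocyte score Plin1 turned to 0.31 and Cidec to 0.23; 2 in SAT became 5 with limma-voom and 4 in WT alone or with the adipocyte score. For genotype, 5 in SAT became 3 with no low-count filter or without the other flow cell and 2 with the lymph node score; 0 in liver became 1 with no low-count filter. The genotype by diet contrast went from 0 to 2 in SAT with DESeq2 and from 0 to 1 in liver with no low-count filter. Leaving out 1 library gave 1 to 3 between depots on chow, 2 to 5 for diet in SAT, 3 to 7 for genotype in SAT, 1 to 2 in male SAT and VAT, and 0 to 4 for the genotype by diet contrast in SAT. The causes were not tested.

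Counts over all genes moved by over 1.5 times for depots on chow (5598; 3656 with at least 10 counts), fat and liver (14777 and 14993; 7426 and 5973), diet in VAT (7653; 4589 in WT and 4554 in KO alone), in SAT (10036; 2606 in KO alone, 3426 with the lymph node score) and in liver (5912; 2718 in KO alone). Genotype in male SAT and VAT (736) gave 338 with no filter, 1211 with DESeq2, 282 without the other flow cell, 139 with the lymph node score and 398 to 1393 leaving out 1 library. Genotype in SAT (796) gave 389 with no filter, 1474 with DESeq2, 383 without the other flow cell, 508 with the lymph node score, 2487 in males alone and 328 to 2723 leaving out 1 library. DESeq2 called 84 genes in VAT and 85 in liver for genotype, and 102, 843 and 22 for the genotype by diet contrast in VAT, SAT and liver; with no filter liver gave 39 and 43. Without chow SAT KO replicate 4 that contrast called 5142 genes in SAT, where it had called 3. No paired analysis was possible because the replicate numbers used here follow accession order, the labels give none, and they do not link the tissues of a mouse.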
